A study of Homo sapiens with 3 samples.

Results

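Amino acid transporter genes were taken from the deposited count tables as the protein-coding genes whose symbols fall in 7 solute carrier families (SLC1, SLC3, SLC6, SLC7, SLC36, SLC38 and SLC43). The rule found 59 of 19951 protein-coding genes, among 58735 genes in all. These families also hold carriers of other substrates, such as the monoamine carriers SLC6A2, SLC6A3 and SLC6A4, the taurine carrier SLC6A6, the creatine carrier SLC6A8, the betaine and GABA carrier SLC6A12 and the nucleobase carrier SLC43A3. The genes are therefore described as the transporter families and not as amino acid carriers alone.

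RNA from 3 established human prostate cancer lines was sequenced, with 1 library per line made from total RNA. PC3 came from a bone metastasis and DU145 from a brain metastasis, both grow without androgen, and the series places them in the castration-resistant class. LNCAP came from a lymph node metastasis, responds to androgen, and stands for the androgen-dependent class. No treatment is named for any of them, all were grown with fetal bovine serum, the androgen-dependent class is modelled by 1 line and the castration-resistant class by 2, and the labels list several media without tying one to a line, so line, class and medium cannot be told apart.

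The libraries held 15319045 counts in PC3, 15878546 in DU145 and 15393103 in LNCAP. A gene with no counts could stand at up to 0.196, 0.189 and 0.195 CPM (a count scaled by library size) in PC3, DU145 and LNCAP, the limit that 3 counts set. The prostate label was checked on 6 luminal markers. Against LNCAP 5 were at least 4-fold lower in PC3 and 6 in DU145. KLK3, which encodes prostate-specific antigen, had no counts in PC3 or DU145 and 2271 CPM in LNCAP. The exception in PC3 was HOXB13, at 387, 0 and 329 CPM in PC3, DU145 and LNCAP. Of 4 epithelial markers KRT8 stood at 258, 1041 and 445 CPM in PC3, DU145 and LNCAP, and CDH1, the E-cadherin gene, at 2.22, 145 and 786 CPM. In the same order KRT18 stood at 189.5, 497 and 232 CPM and EPCAM at 7.52, 69.7 and 61.7 CPM. Of 9 markers of other cell types 4 reached 1 CPM in some line, and CD3E had no counts. The endothelial markers went opposite ways, PECAM1 at 20.1 CPM in PC3, 0.766 CPM in DU145 and 0 in LNCAP, and VWF at 0.0654, 0 and 9.21 CPM. The collagen gene COL1A1, a fibroblast marker, stood at 31.9, 9.45 and 33.1 CPM, and ACTA2, a smooth muscle marker, at 0.458, 0.638 and 1.86 CPM in PC3, DU145 and LNCAP. Their part in the results was not tested.

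Amino acids cross the plasma membrane through carriers that divide the work. Sodium-coupled carriers of the SLC38, SLC1 and SLC6 families bring neutral and acidic amino acids in against their gradient, and exchangers of the SLC7 family then trade one amino acid for another. Most SLC7 exchangers reach the cell surface only as light chains joined to a heavy chain of the SLC3 family, whereas the SLC43 carriers work alone and by facilitated diffusion. Amino acid shortage raises the transcription factor ATF4, which switches on many carrier genes, and amino acids inside the cell switch on the growth kinase complex mTORC1. Androgen is known to raise SLC43A1 in prostate cells, a gene first described for its high level in prostate cancer.

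Promoter windows of 250 bases before to 50 bases after the RefSeq start (GRCh38.p14) were matched for 44 of the 59 genes and searched on both strands for the core of the C/EBP-ATF response element through which ATF4 acts (TGATGNAA) and for the E-box CACGTG, which MYC and related factors bind. The C/EBP-ATF core was in 4 of the 44 windows (9.09%), against 1270 of all 35116 promoters (3.62%). The E-box was in 6 of the 44 (13.6%), against 2548 of all promoters (7.26%). Those 6 were SLC7A5, SLC43A1, SLC38A7, SLC6A16, SLC1A7 and SLC38A5. The 35116 promoters outnumber the 19951 protein-coding genes, so they are not a like set to the 44 windows. With so few matches among the 44, neither difference in share was tested, and no enrichment of either motif is claimed. All 4 C/EBP-ATF matches and the E-box matches of SLC7A5 and SLC43A1 are printed from the sense strand, with the matched letters in capitals. They show where the motif lies in those promoters. The E-box began 130 bases before the start of SLC7A5 (chr16:87869621-87869648, minus strand) and 112 bases before that of SLC43A1 (chr11:57515798-57515825, minus strand). The C/EBP-ATF core lay at the start of SLC38A1 (chr12:46266502-46266531, minus strand) and just after those of SLC7A1 (chr13:29595663-29595692, minus strand) and SLC3A2 (chr11:62881725-62881748, plus strand, match on the other strand). In SLC1A3 it lay 220 bases before the start (chr5:36596357-36596386, plus strand). That RefSeq start lies before the counted gene model (chr5:36606355-36688334). The RefSeq starts used for SLC3A2 and SLC38A1 lie inside their counted models (chr11:62856102-62888875 and chr12:46183063-46270017) and not at the edge. A match describes letters in a window and is not a measured binding site.
SLC7A5: gccggacgacgCACGTGctccgagctgg
SLC43A1: agcgggcgagtCACGTGcgcgtgaaact
SLC38A1: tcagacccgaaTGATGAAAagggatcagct
SLC7A1: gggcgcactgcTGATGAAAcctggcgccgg
SLC3A2: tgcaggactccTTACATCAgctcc
SLC1A3: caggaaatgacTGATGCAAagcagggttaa

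Carriers of neutral amino acids and the heavy chain gene SLC3A2 held most of the leading places in every line. Ranked by deposited FPKM, a per-length level that allows genes to be compared, the 5 highest genes were SLC38A2, SLC7A5, SLC38A1, SLC3A2 and SLC1A5 in PC3. The same 5 genes led in DU145 in the order SLC7A5, SLC38A2, SLC1A5, SLC3A2 and SLC38A1. The leading 5 in LNCAP were SLC38A2, SLC3A2, SLC6A8, SLC38A1 and SLC1A5, with the creatine carrier gene in place of SLC7A5. Summed over the 59 genes the FPKM was 1072 in PC3, 676 in DU145 and 356 in LNCAP, which is 0.418%, 0.247% and 0.128% of all FPKM in those libraries. Much of that sum came from a few genes: SLC38A2 alone made up 42.4% in PC3 and 17.3% in LNCAP, and SLC7A5 26.2% in DU145.

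**Figure D1:**
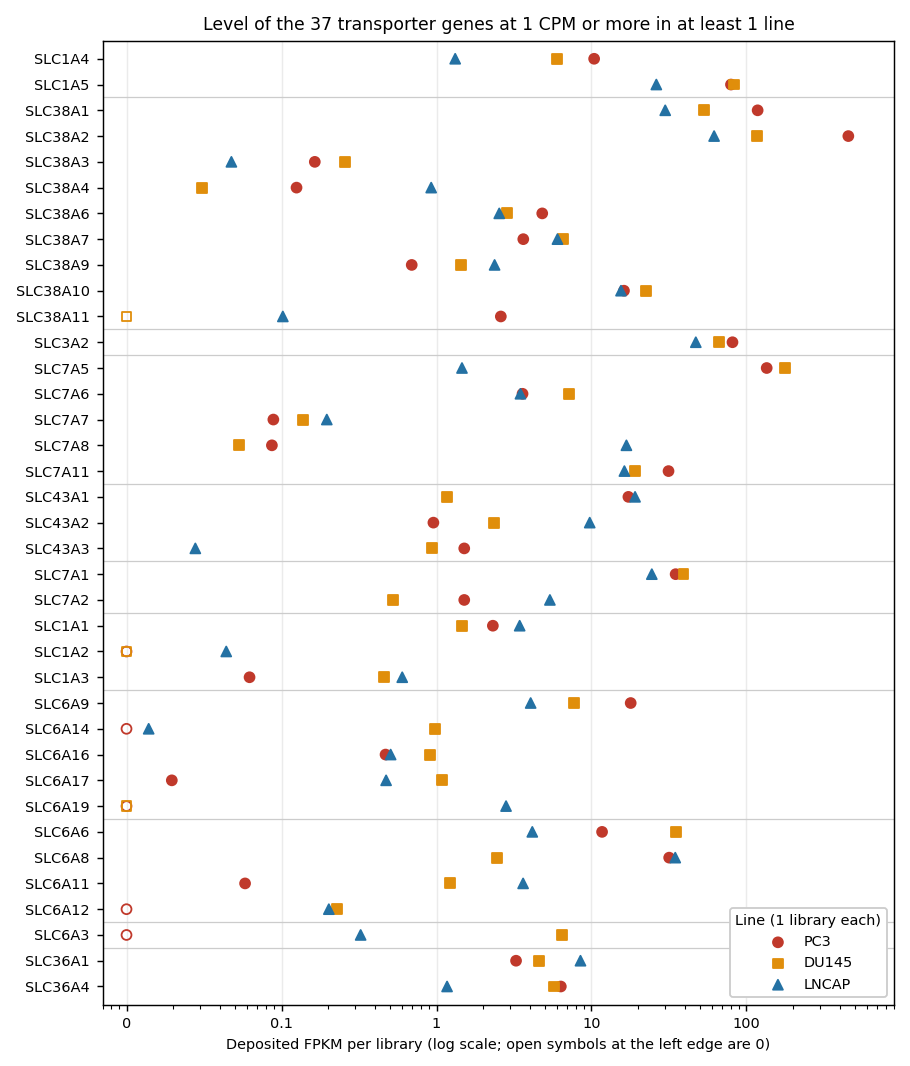
Deposited FPKM (log scale) of the 37 transporter genes that reached 1 CPM in some line, with 1 point per library for PC3 (circles), DU145 (squares) and LNCAP (triangles) and open symbols at the left edge for 0. SLC7A5 lies at 135 and 177 FPKM in PC3 and DU145 against 1.46 in LNCAP, SLC7A8 lies the other way at 0.0867 and 0.0532 against 16.8, and SLC38A2 is highest in PC3 at 454 FPKM.

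Of the 59 genes 37 reached 1 CPM in some line and were compared between lines, as in the plot of FPKM by gene. The other 22 had at most 13 counts in any library. Among them were SLC1A6, SLC1A7, SLC3A1, SLC6A2, SLC6A4, SLC6A5, SLC6A7, SLC6A13, SLC6A15, SLC6A18, SLC6A20, SLC7A3, SLC7A4, SLC7A9, SLC7A10, SLC7A13, SLC7A14, SLC36A2, SLC36A3, SLC38A5 and SLC38A8. Of the 22 genes 7 had no count in any library. Many of these serve brain, kidney or gut, such as the glycine carrier SLC6A5 of inhibitory neurons and the kidney cystine pair SLC3A1 and SLC7A9. At least 1 count was found for 37 genes in PC3, 44 in DU145 and 47 in LNCAP.

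With 1 library per line no difference has a replicate check. A gene was called when the ratio of its scaled counts (TMM, a scaling that centres most genes on no change) was at least 4-fold with 0.5 counts added to each library and its exact 95% counting interval excluded 1. Among all 18025 genes compared, 13.0% were called higher and 13.3% called lower in PC3 than in LNCAP, and of the 37 transporter genes 7 (18.9%) were higher and 10 (27.0%) lower. In DU145 against LNCAP 13.7% of all genes were higher and 12.1% lower, and 8 (21.6%) and 9 (24.3%) of the transporter genes. PC3 against DU145 gave 8.54% of all genes higher and 10.6% lower, with 3 (8.11%) and 6 (16.2%) of the transporter genes. Restricted to 14135 protein-coding genes the background was 12.4% higher and 11.5% lower for PC3 against LNCAP, and 13.3% and 9.99% for DU145 against LNCAP. The families did not lean one way: their median log2 ratio was -0.15 in PC3 and 0.21 in DU145 against LNCAP, beside -0.01 and 0.00 over all genes. The median size of the log2 ratio, whatever its sign, was 1.85 in PC3 and 1.58 in DU145, beside 0.96 and 0.94 over all genes. A gene that passed the filter through 1 line alone was picked for its higher level there. These counts therefore carry no test and say nothing of the families as such.

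**Figure D2:**
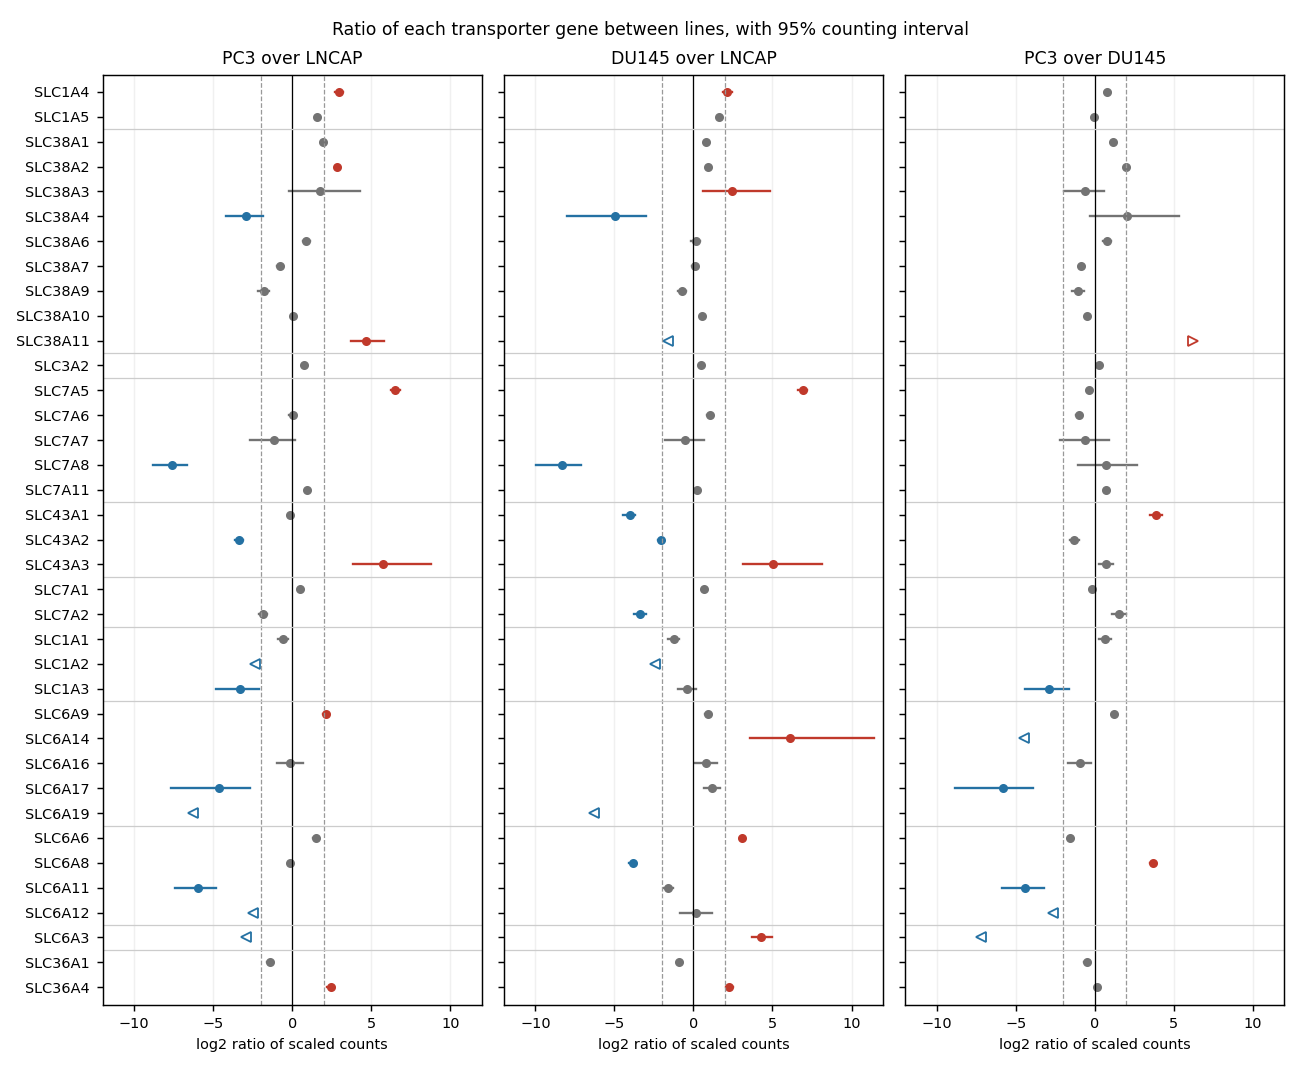
Log2 ratio of scaled counts for the 37 transporter genes in PC3 over LNCAP, DU145 over LNCAP and PC3 over DU145, with 95% counting intervals as bars, open triangles for bounds against a library with no counts, dashed lines at 4-fold, and red or blue for genes called higher or lower. SLC7A5 lies far to the right and SLC7A8 far to the left in both comparisons with LNCAP, and both lie near 0 between PC3 and DU145.

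The comparisons of PC3 and of DU145 with LNCAP share the LNCAP library, so the members called in both are given side by side and not as separate support. SLC1A4, SLC7A5, SLC36A4 and SLC43A3 were at least 4-fold higher in each, and SLC1A2, SLC6A19, SLC7A8, SLC38A4 and SLC43A2 were at least 4-fold lower in each. SLC6A3 and SLC38A11 were called in opposite directions in PC3 and DU145. The plot of ratios with their intervals shows 14 genes called in no pair. Of these SLC3A2, SLC6A16, SLC7A1, SLC7A11, SLC38A6, SLC38A7 and SLC38A10 stayed under 2-fold in all 3 pairs. In each result that follows, fewer cells of a kind and less RNA per cell cannot be told apart. Against a library with no counts the fold is a bound that puts 3 counts there. The bound leaves out the counting error of the other library.

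The light chains of the large neutral amino acid exchangers showed a wide contrast between LNCAP and the other lines. SLC7A5 (ENSG00000103257, chr16:87830023-87869488, minus strand) encodes LAT1, which imports leucine, phenylalanine and other large neutral amino acids in exchange for glutamine. Its counts were 9829 in PC3, 13199 in DU145 and 110 in LNCAP, or 643, 842 and 7.04 CPM after scaling. That made SLC7A5 91.4-fold higher in PC3 (95% counting interval 75.7 to 111) and 119.7-fold higher in DU145 (99.2 to 146) than in LNCAP. PC3 and DU145 differed by 1.31-fold, lower in PC3 (1.28 to 1.34). The related locus SLC7A5P1 had 27, 16 and 15 counts in PC3, DU145 and LNCAP, and how reads shared with it were counted is not given.

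SLC7A8 (chr14:23125295-23183674, minus strand) encodes LAT2, the second exchanger of this pair, which carries small as well as large neutral amino acids and is typical of polarised epithelium. It ran opposite to SLC7A5, with 8 counts in PC3, 5 in DU145 and 1601 in LNCAP, or 0.523, 0.319 and 102 CPM. SLC7A8 was 196-fold lower in PC3 (99.1 to 454) and 321-fold lower in DU145 (137 to 989.8) than in LNCAP. Between PC3 and DU145 its few counts left a ratio of 1.64 with an interval that includes 1 (0.473 to 6.37).

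SLC3A2, the heavy chain (CD98) that both LAT1 and LAT2 need, was high in all 3 lines and differed by less than 2-fold. Its level was 423 CPM in PC3, 343 CPM in DU145 and 248 CPM in LNCAP, 1.71-fold higher in PC3 (1.64 to 1.78) and 1.38-fold higher in DU145 (1.33 to 1.44) than in LNCAP. The other heavy chain gene, SLC3A1, had 1 count in PC3, 1 in DU145 and 0 in LNCAP.

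**Figure D3:**
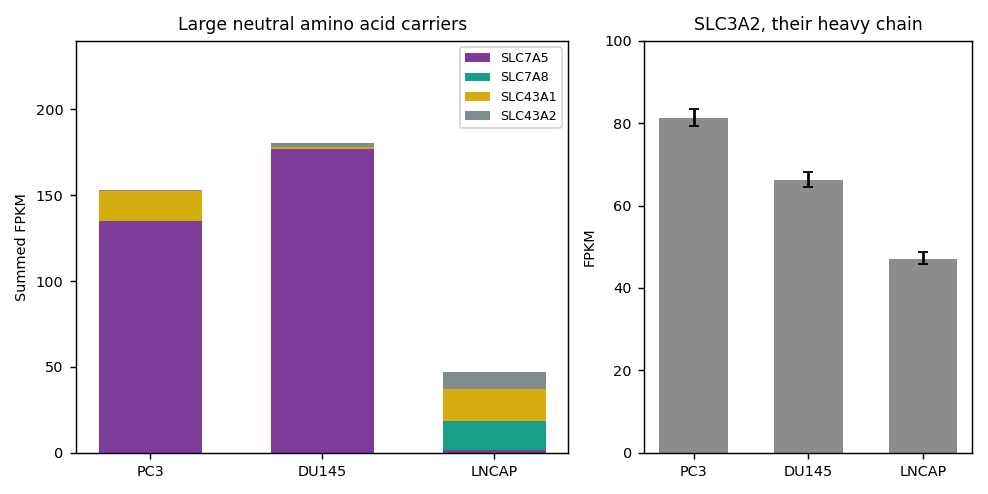
Summed deposited FPKM of the large neutral amino acid carriers SLC7A5, SLC7A8, SLC43A1 and SLC43A2 by line (left) and FPKM of the heavy chain gene SLC3A2 with its 95% counting interval (right), 1 library per line. SLC7A5 fills 88.0% and 98.0% of the bar in PC3 and DU145, whereas the LNCAP bar is shared by SLC43A1, SLC7A8 and SLC43A2.

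Among the SLC43 genes, SLC43A1 and SLC43A2 encode LAT3 and LAT4, carriers of leucine, isoleucine, valine, phenylalanine and methionine that need no heavy chain. SLC43A1 (chr11:57484534-57515786) had 939 counts in PC3, 65 in DU145 and 1072 in LNCAP, or 61.4, 4.15 and 68.6 CPM. It therefore separated DU145 from both other lines: 16.5-fold lower in DU145 than in LNCAP (12.9 to 21.6), 14.8-fold higher in PC3 than in DU145 (11.5 to 19.3), and only 1.12-fold lower in PC3 than in LNCAP (1.02 to 1.22). SLC43A2 (chr17:1569267-1628886) stood at 10.2 CPM in PC3, 25.0 CPM in DU145 and 105 CPM in LNCAP, 10.3-fold lower in PC3 (8.74 to 12.2) and 4.21-fold lower in DU145 (3.77 to 4.71). SLC43A3, a carrier of purine nucleobases, had 105 counts in PC3, 66 in DU145 and 2 in LNCAP. From those 2 counts it was 53.7-fold higher in PC3 (14.5 to 449) and 32.9-fold higher in DU145 (8.76 to 278), and 29.9% of its exon bases are shared with AP000781.2.

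Put on the per-length scale, the 4 large neutral carriers summed to 153 FPKM in PC3, 181 in DU145 and 47.0 in LNCAP. SLC7A5 made up 88.0% of the sum in PC3, 98.0% in DU145 and 3.09% in LNCAP. In LNCAP the sum was spread over SLC43A1 (40.5%), SLC7A8 (35.7%) and SLC43A2 (20.7%), as the stacked bars show. Their LNCAP counts ran in the reverse order, at 1072, 1601 and 1645, so these shares depend on the length of each gene model. SLC43A1 gave 11.3% of the sum in PC3 and 0.648% in DU145.

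The other light chains differed less. SLC7A11 encodes xCT, which imports cystine for glutathione in exchange for glutamate, and stood at 305 CPM in PC3, 186 in DU145 and 160.5 in LNCAP. It was 1.9-fold higher in PC3 (1.81 to 2.0) and 1.16-fold higher in DU145 (1.1 to 1.22) than in LNCAP, and reads of its overlapping partner SLC7A11-AS1 cannot be told apart from its own without a known strand setting. SLC7A6, which exchanges cationic for neutral amino acids, had 27.5, 54.7 and 26.9 CPM in PC3, DU145 and LNCAP, 2.03-fold higher in DU145 than in LNCAP (1.81 to 2.29); 55.6% of its exon bases are shared with other gene models. SLC7A7, its relative, had 7, 11 and 16 counts in PC3, DU145 and LNCAP, and every interval included 1.

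Among the carriers of cationic amino acids, SLC7A1, the general arginine and lysine importer CAT1, was nearly level across the lines at 270.5 CPM in PC3, 302 CPM in DU145 and 192 CPM in LNCAP. Its ratio was 1.41 in PC3 (1.34 to 1.47) and 1.57 in DU145 (1.5 to 1.64) over LNCAP. SLC7A2, an inducible relative, had 184 counts in PC3, 65 in DU145 and 678 in LNCAP. It was 10.5-fold lower in DU145 (8.1 to 13.7) and, short of the threshold, 3.6-fold lower in PC3 (3.06 to 4.26).

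Glutamine enters many cells through the sodium-coupled SLC38 carriers and through SLC1A5. SLC38A2 encodes SNAT2, a carrier of glutamine, alanine and other small neutral amino acids whose gene responds to amino acid shortage. SLC38A2 had 46154 counts in PC3, 12152 in DU145 and 6493 in LNCAP, or 3019, 776 and 415 CPM. PC3 stood apart, 7.27-fold higher than LNCAP (7.08 to 7.46) and, just under the threshold, 3.89-fold higher than DU145 (3.82 to 3.97), while DU145 was 1.87-fold higher than LNCAP (1.81 to 1.92). SLC38A1, which encodes the related carrier SNAT1, followed the same order at 1193 CPM in PC3, 535 CPM in DU145 and 305 CPM in LNCAP. It was 3.91-fold higher in PC3 (3.78 to 4.03) and 1.75-fold higher in DU145 (1.69 to 1.81) than in LNCAP, neither past the threshold.

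Of the exchanger genes of the SLC1 family, SLC1A4 was at least 4-fold higher in both PC3 and DU145 than in LNCAP and SLC1A5 was not. SLC1A5 encodes ASCT2, which takes up glutamine in exchange for other small neutral amino acids, and had 267 CPM in PC3, 277 CPM in DU145 and 88.8 CPM in LNCAP. At 3.0-fold in PC3 (2.82 to 3.19) and 3.12-fold in DU145 (2.94 to 3.32) over LNCAP it did not reach the threshold, and it shares 23.8% of its exon bases with other gene models. SLC1A4 encodes ASCT1, an exchanger of alanine, serine, cysteine and threonine, and stood at 72.6 CPM in PC3, 41.5 CPM in DU145 and 9.34 CPM in LNCAP. It was 7.77-fold higher in PC3 (6.53 to 9.3) and 4.45-fold higher in DU145 (3.71 to 5.36). Taken as a per-length sum, SLC1A5, SLC38A1 and SLC38A2 came to 652 FPKM in PC3, 254 in DU145 and 118 in LNCAP, with SLC38A2 giving 69.7%, 46.2% and 52.4% of it.

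The remaining SLC38 genes were lower in abundance and did not share a direction. SLC38A11, an orphan member, had 222 counts in PC3, none in DU145 and 9 in LNCAP, 25.2-fold higher in PC3 than in LNCAP (13.1 to 55.9), at least 3.01-fold lower in DU145 than in LNCAP and at least 75.9-fold higher in PC3 than in DU145. Its call as lower in DU145 rests on the 0.5 counts added, since the bound against 9 LNCAP counts is under 4-fold. SLC38A4, a carrier typical of liver and placenta, had 8, 2 and 61 counts in PC3, DU145 and LNCAP, 7.46-fold lower in PC3 (3.55 to 18.0) and 30.6-fold lower in DU145 (8.11 to 258). SLC38A3, the glutamine carrier SNAT3 of liver and kidney, had 10, 16 and 3 counts, and was 5.32-fold higher in DU145 than in LNCAP (1.52 to 28.5). These 3 genes were therefore called on small counts in at least 1 library.

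Several SLC38 proteins work on lysosomes or other inner membranes. SLC38A9, a lysosomal arginine sensor that signals to mTORC1, stood at 6.15 CPM in PC3, 12.8 CPM in DU145 and 21.3 CPM in LNCAP, 3.46-fold lower in PC3 than in LNCAP (2.75 to 4.4), which is under the threshold. SLC38A7, which exports glutamine from lysosomes, had 25.6, 45.8 and 42.9 CPM in PC3, DU145 and LNCAP. SLC38A10, a broadly expressed member, had 126, 174 and 122 CPM, and SLC38A6 had 24.9, 14.6 and 13.3 CPM. All ratios of SLC38A7, SLC38A10 and SLC38A6 were under 2-fold. The lysosomal proton-coupled carrier SLC36A1 stood at 22.9 CPM in PC3, 32.2 CPM in DU145 and 60.4 CPM in LNCAP, 2.64-fold lower in PC3 (2.33 to 2.99). Its relative SLC36A4, a high-affinity proline and tryptophan carrier, went the other way with 61.8, 55.3 and 11.5 CPM, 5.37-fold higher in PC3 (4.57 to 6.33) and 4.81-fold higher in DU145 (4.09 to 5.67) than in LNCAP.

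Acidic amino acids are carried by the glutamate transporters of the SLC1 family, of which none was at least 4-fold higher in either comparison with LNCAP. SLC1A1, the epithelial and neuronal member, was the most abundant at 9.29 CPM in PC3, 5.87 CPM in DU145 and 14.0 CPM in LNCAP, and was called in no pair. SLC1A3, best known from astrocytes, had 6 counts in PC3, 45 in DU145 and 60 in LNCAP, 9.78-fold lower in PC3 than in LNCAP (4.24 to 27.7) and 7.32-fold lower than in DU145 (3.11 to 21.0). The other astrocyte carrier gene, SLC1A2, had no counts in PC3 or DU145 and 16 in LNCAP, at least 5.21-fold lower in PC3 and at least 5.35-fold lower in DU145.

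The SLC6 carriers of neutral amino acids and of glycine differed between the lines one by one. SLC6A19 encodes the neutral amino acid carrier of gut and kidney brush borders, and had no counts in PC3 or DU145 against 236 in LNCAP, at least 76.9-fold lower in PC3 and at least 78.8-fold lower in DU145. Its kidney surface partner CLTRN (collectrin) had 79, 0 and 38 counts in PC3, DU145 and LNCAP. SLC6A9, the glycine carrier GLYT1, was highest in PC3 with 92.8 CPM, 39.6 CPM in DU145 and 21.3 CPM in LNCAP, 4.36-fold higher in PC3 than in LNCAP (3.87 to 4.93). SLC6A14, a concentrative carrier of neutral and cationic amino acids, had 0 counts in PC3, 69 in DU145 and 1 in LNCAP, at least 22.4-fold lower in PC3 than in DU145. From that 1 count it was 68.8-fold higher in DU145 than in LNCAP (12 to 2758). SLC6A17, known in rodents as a vesicular neutral amino acid carrier of neurons, had 2, 113 and 50 counts in PC3, DU145 and LNCAP, 24.4-fold lower in PC3 than in LNCAP (6.42 to 207) and 55.1-fold lower than in DU145 (14.9 to 461). The orphan SLC6A16 had 26, 51 and 29 counts and was under 2-fold in each pair.

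Carriers of GABA, betaine, taurine and creatine also set DU145 and PC3 apart. SLC6A6, the taurine carrier, stood at 97.5 CPM in PC3, 288 CPM in DU145 and 34.9 CPM in LNCAP, 8.27-fold higher in DU145 (7.57 to 9.06) and 2.8-fold higher in PC3 (2.53 to 3.09) than in LNCAP. SLC6A8, the creatine carrier, was low in DU145, with 176 CPM in PC3, 13.5 CPM in DU145 and 194 CPM in LNCAP. It was 14.4-fold lower in DU145 than in LNCAP (12.5 to 16.6), 13.0-fold higher in PC3 than in DU145 (11.3 to 15.0) and 1.11-fold lower in PC3 than in LNCAP (1.05 to 1.17), much as SLC43A1. SLC6A11, a GABA carrier, had 6 counts in PC3, 129 in DU145 and 386 in LNCAP, 62.9-fold lower in PC3 (28.6 to 172) and 3.0-fold lower in DU145 (2.45 to 3.69) than in LNCAP. SLC6A12, the betaine and GABA carrier, had 0, 19 and 17 counts, at least 5.54-fold lower in PC3 than in LNCAP and at least 6.18-fold lower than in DU145. The dopamine carrier gene SLC6A3 had 0 counts in PC3, 452 in DU145 and 23 in LNCAP, 19.6-fold higher in DU145 than in LNCAP (12.9 to 31.2), at least 7.5-fold lower in PC3 than in LNCAP and at least 147-fold lower in PC3 than in DU145.

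The series design sets PC3 and DU145 as 1 class against LNCAP, and this comparison was fitted across all genes with PC3 and DU145 as the class's 2 libraries. With 1 residual degree of freedom, edgeR's quasi-likelihood test with Benjamini-Hochberg adjustment called 0 of 18025 genes (0.0%) and 0 of the 37 transporter genes at 0.05, with a smallest adjusted p of 0.266 over all genes. At an unadjusted p under 0.05 the same edgeR test held 1746 genes and 8 transporter genes. By its log2 fold change the 8 were SLC7A5 (6.72), SLC43A3 (5.35), SLC1A4 (2.61), SLC36A4 (2.35) and SLC1A5 (1.61) on the higher side and SLC6A19 (-10.87), SLC7A8 (-7.9) and SLC43A2 (-2.58) on the lower side. DESeq2 gave no adjusted p for SLC1A2, SLC38A3, SLC7A7 and SLC6A12, which could therefore not be called. It called 1298 of 18025 genes (7.2%) and 6 of the 37. Those 6 were SLC7A5 (log2 6.72), SLC36A4, SLC1A4 and SLC43A3 on the higher side and SLC7A8 (log2 -7.93) and SLC6A19 on the lower side. SLC7A8 and SLC6A19 passed the filter through LNCAP alone, and SLC43A3 through PC3 and DU145 alone. The limma-voom fit called 0 genes, with 1334 genes and 6 transporter genes at an unadjusted p under 0.05. In each fit the spread comes from PC3 and DU145 alone and may not stand for castration-resistant lines at large. Each fit also draws a gene's spread toward that of other genes, so its p-value does not rest on that gene's own difference between PC3 and DU145 alone. LNCAP is 1 library, so the spread of the androgen-dependent class was not measured and the p-values do not cover it.

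Genes that act with the carriers were read from lists of known function, beside the same share over all genes (13.0% called higher and 13.3% lower in PC3, 13.7% higher and 12.1% lower in DU145, against LNCAP). Of 29 genes that ATF4 or its partners switch on in amino acid shortage, 5 (17.2%) were called higher and 0 lower in PC3 than in LNCAP, with a median log2 ratio of 0.62. In DU145 3 (10.3%) were called higher and 2 (6.9%) lower than in LNCAP, with a median of 0.47. STC2, which encodes a secreted glycoprotein, was 12.5-fold higher in PC3 (11.7 to 13.4), the glutathione-degrading enzyme gene CHAC1 10.7-fold (9.13 to 12.6) and the pseudokinase gene TRIB3 5.91-fold (5.59 to 6.25). In DU145 the mitochondrial folate enzyme gene ALDH1L2 was 65.7-fold higher (31.6 to 164), CHAC1 5.64-fold higher (4.79 to 6.68) and MTHFD2 4.14-fold higher (3.91 to 4.4), and the stress genes NUPR1 and ATF3 were 15.4-fold (12.6 to 19.1) and 13.3-fold lower (10.8 to 16.6). ATF4 itself stood at 391 CPM in PC3, 471 CPM in DU145 and 257 CPM in LNCAP, and ASNS, the asparagine synthetase gene, at 18.1, 6.38 and 10.6 CPM. Neither was called in any pair.

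Of 33 genes that relay amino acid levels to mTORC1, 0 were called higher in PC3 or DU145 than in LNCAP, and 5 (15.2%) were called lower in PC3 and 3 (9.09%) in DU145, shares near the 13.3% and 12.1% of all genes called lower. The leucine sensor family gene SESN3 was 31.1-fold lower in PC3 (25.1 to 39.0), with 5.63 CPM in PC3, 84.6 CPM in DU145 and 175 CPM in LNCAP. SESN1 was 7.24-fold lower in PC3 (6.01 to 8.78) and 9.24-fold lower in DU145 (7.52 to 11.4). FNIP2, a partner of folliculin, was 5.99-fold lower in PC3 (4.99 to 7.24) and 8.73-fold lower in DU145 (7.05 to 10.9). CASTOR1, the arginine sensor gene, was 9.52-fold lower in DU145 from 2 counts (2.3 to 84.3). The list's median log2 ratio over LNCAP was -0.19 in PC3 and -0.5 in DU145.

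Of 15 compared genes of glutamine and glutamate metabolism 0 were called higher and 2 (13.3%) lower in PC3 than in LNCAP, and 2 (13.3%) were called higher and 0 lower in DU145. The 2 lower in PC3 and the 2 higher in DU145 are near the share of all genes. PRODH, the first enzyme of proline breakdown, had 0 counts in PC3, 216 in DU145 and 6 in LNCAP. Its call as lower in PC3 rests on the 0.5 counts added, with a bound of at least 1.96-fold. GLS2, the liver-type glutaminase gene, had 4, 12 and 22 counts, 5.38-fold lower in PC3 than in LNCAP (1.83 to 21.5).

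Of 10 compared genes of branched-chain amino acid breakdown 0 were called higher and 2 (20.0%) lower in PC3 than in LNCAP, and 1 (10.0%) was called higher and 3 (30%) lower in DU145. BCAT1, the cytosolic transaminase of leucine, isoleucine and valine, had 18 counts in PC3, 5897 in DU145 and 11 in LNCAP, 535-fold higher in DU145 than in LNCAP (299 to 1072). MCCC1, a leucine pathway carboxylase gene, was 4.92-fold lower in PC3 (4.4 to 5.51) and 5.91-fold lower in DU145 (5.25 to 6.67). PPM1K, the phosphatase gene that activates the branched-chain dehydrogenase, was 4.04-fold lower in PC3 (3.45 to 4.75) and 13.2-fold lower in DU145 (10.2 to 17.5), and the dehydrogenase subunit gene DBT 7.39-fold lower in DU145 (6.61 to 8.28). The list's median log2 ratio was -1.17 in PC3 and -0.93 in DU145 over LNCAP, beside -0.01 and 0.00 over all genes. The 2 and 3 genes called lower stand beside 13.3% and 12.1% of all genes. With 10 genes compared, neither difference was tested.

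Of 14 compared genes of cystine and glutathione use 1 (7.14%) was called higher and 3 (21.4%) lower in PC3 than in LNCAP, and 3 (21.4%) were called higher and 1 (7.14%) lower in DU145. GGT1, which breaks down glutathione outside the cell, had 1.57 CPM in PC3, 1.79 CPM in DU145 and 105 CPM in LNCAP, 67.1-fold (44.9 to 105) and 58.9-fold lower (40.6 to 89.0), although near-identical copies of this gene may hold some of its reads. In PC3 the glutathione reductase gene GSR was 6.95-fold lower (6.47 to 7.48) and CBS, which makes cystathionine, 5.82-fold lower (4.96 to 6.86) than in LNCAP. GCLC, the rate-limiting enzyme of glutathione synthesis, was 5.28-fold higher in DU145 (4.88 to 5.71), and GGT5 15.0-fold higher from 4 LNCAP counts (5.55 to 56.7). Of 17 compared carriers and partners outside the 7 families 0 were called higher and 2 (11.8%) lower in PC3, and 2 (11.8%) higher and 3 (17.6%) lower in DU145, against LNCAP. SLC16A10, a carrier of aromatic amino acids, was 23.1-fold lower in PC3 (12.7 to 46.9) and 10.4-fold lower in DU145 (6.9 to 16.4). The vesicular glutamate carrier gene SLC17A8 had 82 counts in DU145 and none in PC3 or LNCAP.

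**Figure D4:**
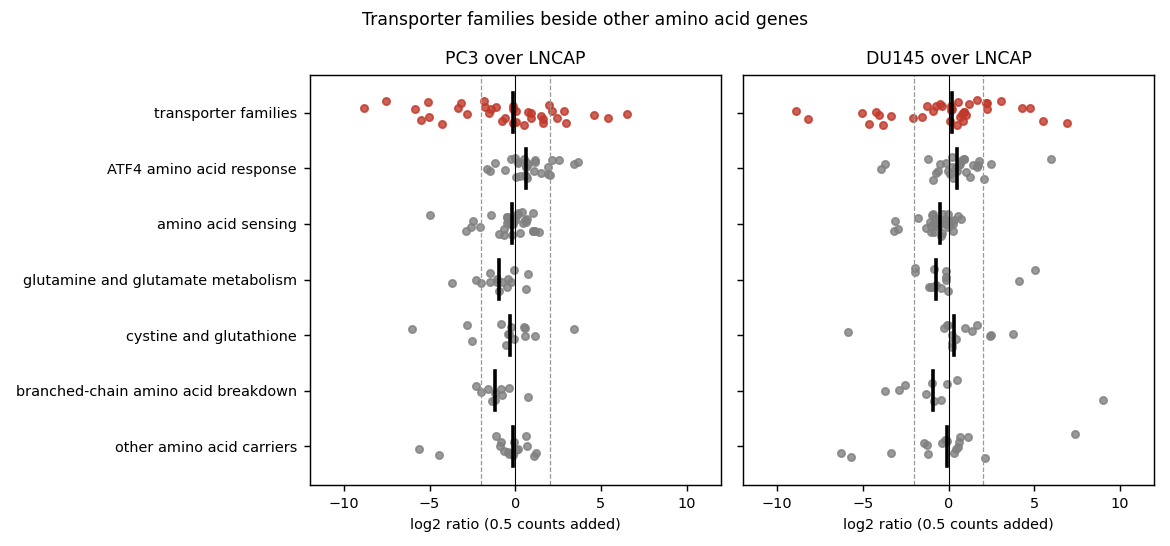
Log2 ratio (0.5 counts added) of each compared gene in PC3 over LNCAP (left) and DU145 over LNCAP (right), for the 37 transporter genes (top) and 6 lists of genes that act with them; each dot is 1 gene, thick bars are medians and dashed lines mark 4-fold. Transporter genes spread to both sides around medians of -0.15 and 0.21. The medians of the 10 genes of branched-chain breakdown lie at -1.17 and -0.93, and those of all genes, not drawn, were -0.01 and 0.00.

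The plot of the lists shows transporter genes past 4-fold on both sides of 0. The number called depends on genes of low level: with 1 added to each FPKM, PC3 against LNCAP gave 3 higher and 3 lower transporter genes in place of 7 and 10. The ratios of SLC7A5, SLC7A8 and SLC38A2 over LNCAP rest on at least 1601 counts in the higher library. In the lower library SLC7A8 had only 8 counts in PC3 and 5 in DU145, SLC7A5 110 in LNCAP and SLC38A2 6493 in LNCAP.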

How the data were processed

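The authors deposited, for each library, unnormalized whole-number read counts by gene and a second table of FPKM per gene. The deposited FPKM is the same count over gene length and 1 constant per library (1.005, 0.988 and 1.034 times the count total in PC3, DU145 and LNCAP). The submitters' processing notes name, without roles, TopHat2 2.0.9, Bowtie2 2.0.6, Cuffdiff 2.1.1 and Cufflinks 2.1.1. Not given in the sources used here were the read counter, its strand setting, its handling of reads with several matches, and the build. Every one of the 58735 identifiers and coordinates matched GENCODE 29, so gene coordinates are on GRCh38.

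Samples were grouped by the cell line label. TMM factors (edgeR 4.0.16, R 4.3.3) were 0.998, 0.987 and 1.016 for PC3, DU145 and LNCAP, and the 18025 genes that reached 1 CPM in some library were compared. Pairwise ratios have exact 95% counting intervals (Clopper-Pearson on the conditional binomial), computed in scipy 1.17.1 with pandas 2.3.3, numpy 2.4.6 and Python 3.11.15; figures were drawn with matplotlib 3.10.9. Calls needed an absolute log2 ratio of 2 or more, after adding 0.5 counts, and an interval without 1. Against 0 counts the fold is a bound that puts 3 counts there, and none is given where both had 3 or fewer. The labels name no molecular identifiers, so reads are not independent molecules. Intervals cover counting error only. Bounds leave out the counting error of the library with counts, and intervals and bounds alike compare these libraries. The class comparison used edgeR's quasi-likelihood test, with DESeq2 1.42.0 and limma 3.58.1 (voom) as alternatives. The scripts were checked on simulated counts with known changes.

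The transporter genes, the lists and the rules were chosen with earlier results of these data known. Named were all genes called in a pair, the 5 highest by FPKM in each line, those under 2-fold in all pairs, SLC3A1, SLC3A2, SLC43A1, SLC1A5, SLC7A5 and SLC7A11, and from each list up to 3 genes each way with the largest near bound of the interval. SLC1A1, SLC7A6, SLC7A7, SLC36A1, SLC38A9, ATF4, ASNS and CLTRN, and the E-box, were added after values were seen. Some genes of the families and lists are not reported here. Promoter sequences are RefSeq's.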

Additional observations from a re-analysis of the deposited data

Results flagged for a closer look

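SLC6A3 and SLC38A11 were called in opposite directions in the 2 castration-resistant lines. The log2 ratio of SLC6A3, with 0.5 counts added, was -5.52 in PC3 and 4.26 in DU145 over LNCAP. That of SLC38A11 was 4.58 in PC3 and -4.25 in DU145. The difference was not tested, both ratios share the LNCAP library, and a ratio against a library with no counts depends on the counts added. For SLC38A11 in DU145 the bound is at least 3.01-fold lower.

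Loci outside the 59 genes that resemble or overlap them had more counts than the 3 that a count of 0 allows. SLC7A11-AS1, which overlaps SLC7A11, had 50 counts in PC3, 33 in DU145 and 23 in LNCAP. The related locus SLC7A5P1 had 27 counts in PC3, 16 in DU145 and 15 in LNCAP. SLC7A6OS, a protein-coding gene on the strand opposite SLC7A6, had 153 counts in PC3, 175 in DU145 and 61 in LNCAP.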

How the results depend on the processing

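Scaling with DESeq2 size factors, library totals or TMM without mitochondrial genes left every count of called transporter genes in the 3 pairs as it was. DESeq2 size factors, library totals and TMM over genes with no filter or a 5 CPM filter moved a log2 ratio by at most 0.041. Of 351 alternatives of 93 log2 ratios 0 reversed, and 1 lay outside its counting interval (SLC38A2 in PC3 over LNCAP, 2.82 with a 5 CPM filter). Of 76 alternatives of counts 59 were within 1.5 times. The 8-fold threshold gave 3 higher in PC3 and 5 higher in DU145 against LNCAP, and the 2-fold threshold 7 higher in PC3 against DU145. The 5 CPM filter, which tests fewer genes, gave 6 lower in PC3 against LNCAP and 3 lower in PC3 against DU145. With 1 added to FPKM there were 3 higher and 3 lower in PC3 against LNCAP, 3 higher and 4 lower in DU145 against LNCAP, and 1 lower in PC3 against DU145. Leaving out the 27 compared genes whose model overlaps another by any base left 0 higher and 3 lower, 3 higher and 2 lower, and 1 higher and 3 lower, in the same order of pairs. Leaving out, after seeing the data, only the 3 genes that share at least 10% of exon bases gave 6 and 10, 7 and 9, and 3 and 6. In the class comparison DESeq2 called 6 transporter genes against 0 in edgeR; limma-voom, edgeR with DESeq2 size factors and edgeR with no filter also called 0. The class log2 fold change of SLC7A5 was 6.51 to 6.9, and that of SLC7A8 -8.19 to -7.53, without CRPC replicate PC3 or DU145; each leaves 1 library against 1, with no residual degree of freedom and no test. No paired analysis was possible because each line has 1 library. With no filter PC3 against LNCAP gave 8 higher and 12 lower and DU145 against LNCAP 8 higher and 11 lower, on at most 13 counts for the genes gained.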

Other observations

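Several transporter genes lie close together, and some neighbours shared a pattern while others did not. SLC6A12 and SLC6A13 lie 6050 bases apart on chromosome 12. SLC6A12 had 0, 19 and 17 counts in PC3, DU145 and LNCAP, and SLC6A13, under the filter, had 0, 4 and 3. SLC38A1 and SLC38A2 lie 88171 bases apart on chromosome 12 and were both highest in PC3, at 1193 and 3019 CPM, whereas SLC38A4, 391893 bases from SLC38A2, was highest in LNCAP at 3.9 CPM. SLC43A3 and SLC43A1 lie 56953 bases apart on chromosome 11. SLC43A3 had 105 counts in PC3, 66 in DU145 and 2 in LNCAP, while SLC43A1 had 939, 65 and 1072. On chromosome 14 SLC7A7 and SLC7A8 lie 295474 bases apart. SLC7A7 had 7, 11 and 16 counts in PC3, DU145 and LNCAP, and SLC7A8 had 8, 5 and 1601. On chromosome 5 SLC6A19 ends 237 bases from SLC6A18, and SLC6A3 follows 146600 bases on. SLC6A18 was under the filter, with 7 counts in LNCAP and 0 in PC3 and DU145. SLC6A19 was detected in LNCAP alone, with 236 counts, while SLC6A3 had 452 counts in DU145 and 23 in LNCAP.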
